A study of Homo sapiens with 4 samples.

Results

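The members of 2 human microRNA (miRNA) clusters, miR-17-92 and miR-106b-25, were followed through 4 small RNA libraries made after an RNA pull-down. Their 9 mature miRNAs were taken by name from the table of 843 distinct miRNAs that the authors deposited. They are hsa-miR-17-5p, hsa-miR-18a-5p, hsa-miR-19a-3p, hsa-miR-20a-5p, hsa-miR-19b-3p and hsa-miR-92a-3p of miR-17-92, and hsa-miR-106b-5p, hsa-miR-93-5p and hsa-miR-25-3p of miR-106b-25. Of the 9, 8 had counts in all 4 libraries, and miR-19a-3p was blank in the AGS positive probe library.

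HGC27 and AGS are established human gastric cancer lines. Every group carried the same modification, a lentivirus that kept the 3′-untranslated region of FN1 (fibronectin) overexpressed, so no group without it entered a comparison. Biotinylated RNA made in vitro, a probe directed at the FN1 3′-UTR that was named positive or negative, was fixed to magnetic beads and mixed with each lysate, and the small RNA left after washing was sequenced. The groups were HGC27 with the negative probe, HGC27 with the positive probe, AGS with the negative probe and AGS with the positive probe, with 1 library each. The study's methods put antisense RNA on the beads and the labels allow for either strand, but no source used here says which strand the names positive and negative stand for, so the values are not assigned to a strand. With 1 library per group, differences inside a line were judged against counting error only, and recovery on the beads cannot be told apart from the amount of a miRNA in the lysate, nor fewer cells from less RNA per cell.

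A mature miRNA guides its protein complex to messenger RNAs mainly through its seed, bases 2 to 8 from the 5′ end, so miRNAs with the same seed share many targets. Both clusters are made as 1 long transcript that is cut into several hairpins, and each mixes different seeds. miR-17-92 is a classical oncogenic cluster that is switched on by MYC, and miR-106b-25 is its relative in an intron of MCM7, a gene of the replicative helicase. The miR-17 seed is known for restraining cell cycle inhibitors, and the miR-25/92 seed for restraining the death factor BIM.

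The mature sequences, credited to RefSeq (GRCh38.p14) and identical to the deposited ones for all 9 members, are shown because the members fell apart by seed. Capitals mark bases 2 to 8.
miR-17-5p: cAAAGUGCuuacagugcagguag
miR-20a-5p: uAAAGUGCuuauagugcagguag
miR-93-5p: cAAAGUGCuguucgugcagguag
miR-106b-5p: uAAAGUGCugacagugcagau
miR-18a-5p: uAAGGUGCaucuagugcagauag
miR-19a-3p: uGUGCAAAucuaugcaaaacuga
miR-19b-3p: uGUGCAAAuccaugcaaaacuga
miR-92a-3p: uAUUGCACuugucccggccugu
miR-25-3p: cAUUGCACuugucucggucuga
The seeds split the members into 4 with the miR-17 seed, 1 with the miR-18 seed, 2 with the miR-19 seed and 2 with the miR-25/92 seed. Near-identical members were separated by few bases. Counted from 1 at the 5′ end, with the first-named miRNA's base first, miR-17-5p and miR-20a-5p differed at C1U and C12U, miR-19a-3p and miR-19b-3p at U11C, and miR-25-3p and miR-92a-3p at C1U, U14C, U18C and A22U.

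The 6 hairpins of miR-17-92 lay within 787 bases at chr13:91350605-91351391 (GRCh38, plus strand), in an intron of 1 transcript of the host gene MIR17HG (between its exons 3 and 4) and in exon 3 of another. The 3 hairpins of miR-106b-25 lay within 515 bases at chr7:100093560-100094074 (GRCh38, minus strand), in the intron between exons 13 and 14 of a transcript of MCM7. miR-19b-3p and miR-92a-3p are also made from a second hairpin each on chromosome X, and their reads cannot be assigned to 1 of the 2 hairpins.

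The libraries held 1452832 counts (HGC27 negative probe), 1296853 (HGC27 positive probe), 2955078 (AGS negative probe) and 1527390 (AGS positive probe). One miRNA, miR-372-3p, took 80.8% and 37.5% of the counts of the AGS negative and positive probe libraries and 0.18% and 0.30% of those of HGC27, so AGS values scaled to a total moved with it. Of the 6 epithelial marker miRNAs (the miR-200 family, miR-141-3p and miR-203a-3p), 5 had counts in both HGC27 libraries and in the AGS positive probe library and 6 in the AGS negative probe library, and their summed level per 1000000 counts of the table was 1561 with the negative and 792 with the positive probe in HGC27, and 25010 and 2295 in AGS. Mesenchymal markers (miR-199a and miR-214) summed to 5668 per 1000000 with the negative and 666 with the positive probe in HGC27, and to at most 13.8 in AGS. Their part in the results was not tested. Of 6 blood markers 1 was listed, at 1.38 per 1000000 in the HGC27 negative probe library and without a count elsewhere.

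All 4 members with the miR-17 seed were recovered far less with the positive probe in both lines. Levels are given as the deposited tags per 1000000, rounded to whole numbers by the authors. miR-20a-5p, the most abundant member, stood at 12172 with the negative and 1184 with the positive probe in HGC27, and at 902 and 40 in AGS. It ranked 5 among the miRNAs of the HGC27 negative probe library and 38 with the positive probe, and 16 and 67 in AGS. miR-17-5p, which differs from it by 2 bases, stood at 2209 and 345 in HGC27 and at 176 and 7 in AGS.

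The members of the other cluster with this seed did the same. miR-93-5p stood at 1959 with the negative and 404 with the positive probe in HGC27, and at 107 and 11 in AGS. miR-106b-5p, the least abundant of the 4, stood at 204 and 25 in HGC27 and at 10 and 1 in AGS, where the last value rested on 6 counts. For each of these 4 the order of the libraries on the deposited scale was the same. It ran from the HGC27 negative probe down through the HGC27 positive and the AGS negative to the AGS positive probe. The middle step, HGC27 positive above AGS negative, depended on the scaling. In raw counts it was reversed for miR-20a-5p (3272 against 6478), miR-17-5p (954 against 1265) and miR-106b-5p (68 against 75). For miR-93-5p it was kept (1117 against 768).

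The miR-19 seed members were scarce and lower with the positive probe. miR-19a-3p stood at 54 with the negative and 3 with the positive probe in HGC27, from 157 and 8 counts, and at 3 with the negative probe in AGS, from 25 counts. It was blank with the positive probe in AGS, where 3 counts, the most that a blank was taken to allow, correspond to 0.702 tags per 1000000. miR-19b-3p stood at 53 and 7 in HGC27 and at 3 and 1 in AGS, the last from 3 counts. In AGS both miRNAs were thus near the limit of detection.

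miR-18a-5p, the single member with the miR-18 seed, stood at 58 with the negative and 41 with the positive probe in HGC27 and at 3 with each probe in AGS, from 19 and 13 counts. Its seed differs from that of miR-17 by 1 base, the A4G substitution from miR-17-5p to miR-18a-5p.

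The miR-25/92 seed members behaved otherwise. miR-92a-3p stood at 2773 with the negative and 2341 with the positive probe in HGC27, and at 165 and 539 in AGS. miR-25-3p stood at 1080 and 2113 in HGC27 and at 36 and 109 in AGS. The positive probe library was thus the higher one for miR-25-3p in both lines and for miR-92a-3p in AGS only.

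**Figure D1:**
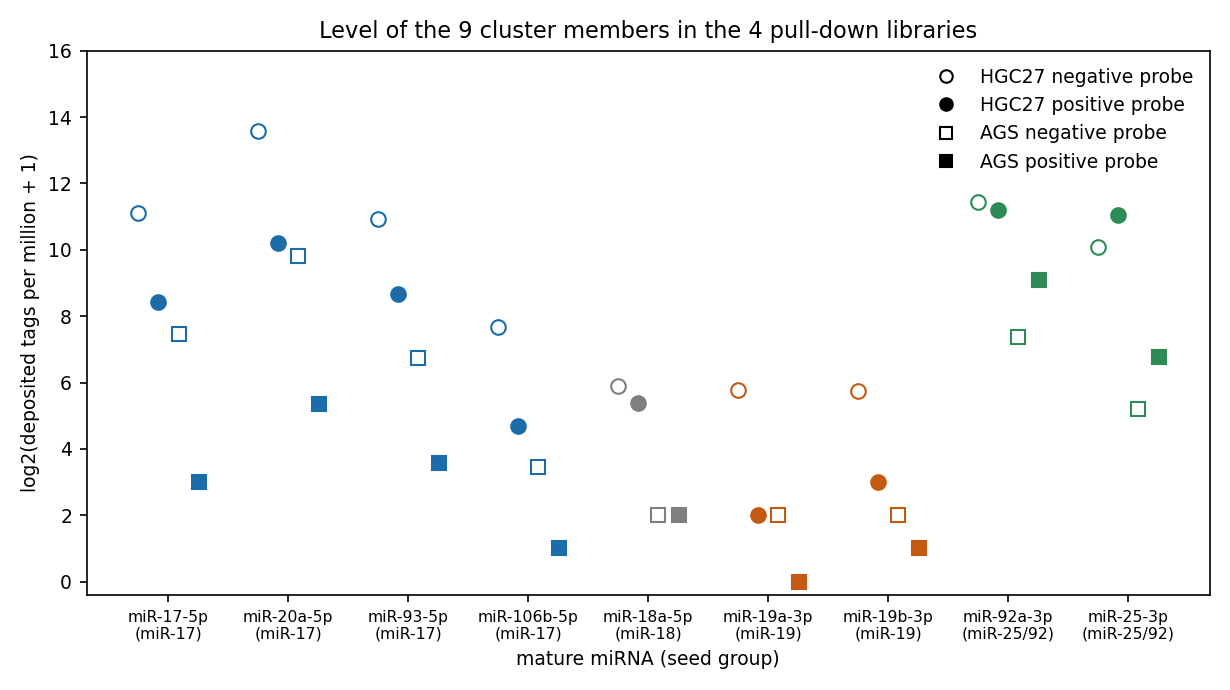
Level of each member in the 4 libraries, as log2 of the deposited tags per 1000000 + 1, with 1 point per library (circles HGC27, squares AGS, open for the negative and filled for the positive probe). Colors mark the seed group. The open symbol lies above the filled one of the same line for every miR-17 and miR-19 seed member, and miR-25-3p shows the reverse in both lines.

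The probe ratio asks which of the probes recovered more of a miRNA. It divided the positive probe's deposited value + 1 by the negative probe's, and a ratio of at least 2 was called higher and one of at most 0.5 lower. Intervals are exact 95% intervals of the fold from the counts, without the added 1, and cover counting error only. In HGC27, 6 of the 9 members were at most 0.5 and 0 were at least 2, where of the 755 miRNAs listed in either library 34.0% were at most 0.5 and 37.5% at least 2. In AGS, 6 of the 9 were at most 0.5 and 2 at least 2, against 22.7% and 39.4% of the 459 listed. All 9 members had at least 10 counts in either library of each pair. Among the miRNAs that reached this, 33.3% of 366 in HGC27 and 31.3% of 230 in AGS were at most 0.5. At least 2 were 28.1% and 40.4%. The 6 lower members were in both lines the 4 with the miR-17 seed and the 2 with the miR-19 seed.

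The ratio of miR-20a-5p was 0.0974 in HGC27 (interval 0.0938 to 0.101) and 0.0454 in AGS (0.0379 to 0.0516), a log2 ratio of -3.36 and -4.46. That of miR-17-5p was 0.157 (0.146 to 0.167) and 0.0452 (0.0279 to 0.0587). The 2 miRNAs, which differ at 2 bases, had overlapping intervals in AGS but not in HGC27, where miR-20a-5p was the lower one.

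In the miR-106b-25 cluster, miR-93-5p had a ratio of 0.207 in HGC27 (0.193 to 0.220) and 0.111 in AGS (0.0731 to 0.136). That of miR-106b-5p was 0.127 (0.0926 to 0.156) and 0.182 (0.0478 to 0.307), the AGS value resting on 6 counts against 75. Log2 ratios of the miR-17 seed thus ran from -3.36 to -2.27 in HGC27 and from -4.47 to -2.46 in AGS.

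The miR-19 seed members had ratios of 0.0727 (0.0227 to 0.108) for miR-19a-3p and 0.148 (0.0807 to 0.217) for miR-19b-3p in HGC27. In AGS miR-19a-3p was 4.96-fold lower with the positive probe when its blank was set to 3 counts. Its exact interval, which also covers the error of the 25 counts with the negative probe, reached a ratio of 0.267. miR-19b-3p had an AGS ratio of 0.5, exactly at the threshold, with 3 counts for the positive and 19 for the negative probe (interval 0.0503 to 0.901). This value came from rounded levels of 1 and 3 with 1 added to each. With 0.1 added instead, the log2 ratio was -1.49.

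miR-18a-5p did not pass either threshold, with a ratio of 0.712 in HGC27 (0.546 to 0.892) and 1.00 in AGS (0.522 to 2.45). Its interval excluded 1 in HGC27 and included it in AGS. The AGS call depended on the scaling, with a ratio of 0.423 once the library totals excluded miR-372-3p, past the threshold of 0.5.

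miR-25-3p had a ratio of 1.96 in HGC27 (1.87 to 2.04), just short of the threshold, and 2.97 in AGS (2.61 to 3.56). miR-92a-3p had a ratio of 0.844 in HGC27 (0.817 to 0.873) and 3.25 in AGS (3.04 to 3.50). The AGS values of both depended on the scaling. Once the library totals excluded miR-372-3p they were 1.08 and 1.15, and under TMM scaling (edgeR's trimmed mean of M values) the log2 values were 0.88 and 0.98, so that neither passed the threshold.

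The AGS median log2 ratio over the 230 miRNAs with at least 10 counts in either library was 0.41 on the deposited scale. Excluding miR-372-3p moved it from 0.69 with the full table totals to -0.95. Set against the median of 0.41, miR-25-3p lay 1.16 and miR-92a-3p 1.29 above it, while miR-17-5p and miR-20a-5p each lay 4.88 below it. In HGC27, where the median was -0.12, miR-25-3p lay 1.08 above and miR-92a-3p 0.13 below it (log2 difference -0.13). The median log2 ratio of the 9 members was -2.68 in HGC27 and -2 in AGS, or -2.31 in AGS with miR-19a-3p at its bound. The AGS median was -3.42 under TMM and -4.19 without miR-372-3p in the totals. In that last setting 7 members were at most 0.5, as were 208 of the 459 miRNAs listed, against 104 on the deposited scale.

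**Figure D2:**
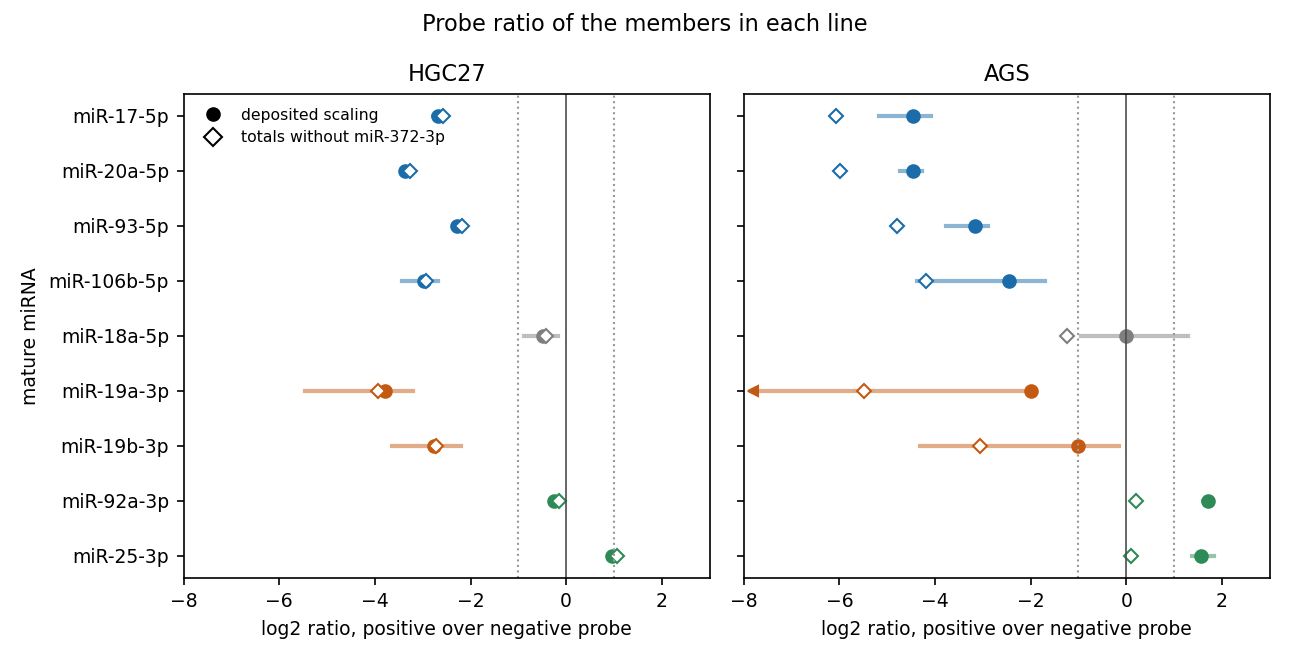
Log2 probe ratio of each member in HGC27 (left) and AGS (right). Filled circles use the deposited scaling, open diamonds the totals without miR-372-3p, bars are 95% counting intervals (an arrow marks an interval with no lower end), and dotted lines mark ratios of 0.5 and 2. The miR-17 and miR-19 seed members lie at or left of the lower line in both lines, and in AGS the diamonds of miR-92a-3p and miR-25-3p fall between the dotted lines.

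The seed groups were then compared within a library, where no scaling enters. The miR-17 seed held 80.5% of the members' 59767 counts in the HGC27 negative probe library (Wilson 95% interval 80.1 to 80.8) and 30.3% of 17861 with the positive probe (29.6 to 31.0). In AGS it held 85.1% of 10093 counts with the negative (84.4 to 85.7) and 8.36% of 3037 with the positive probe (7.43 to 9.40). The miR-25/92 seed held 18.7% and 68.9% in HGC27 and 14.3% and 91.1% in AGS. The share of the miR-17 seed averaged 82.8% over the 2 negative and 19.3% over the 2 positive probe libraries, with both negative probe libraries above both positive ones. An exact permutation test over the libraries (two-sided) gave p = 0.333, which is the smallest that 2 against 2 libraries allow. It exchanged libraries across the lines and so ignored their pairing by line. As no smaller p was possible, the test cannot decide the question.

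The remaining seeds held under 1% in every library. The miR-18 seed held between 0.188% and 0.633% of the members' counts, and its share was higher with the positive probe in both lines, with overlapping intervals in AGS. The miR-19 seed held 0.522% and 0.157% with the negative and positive probe in HGC27 and 0.436% and 0.0988% in AGS.

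**Figure D3:**
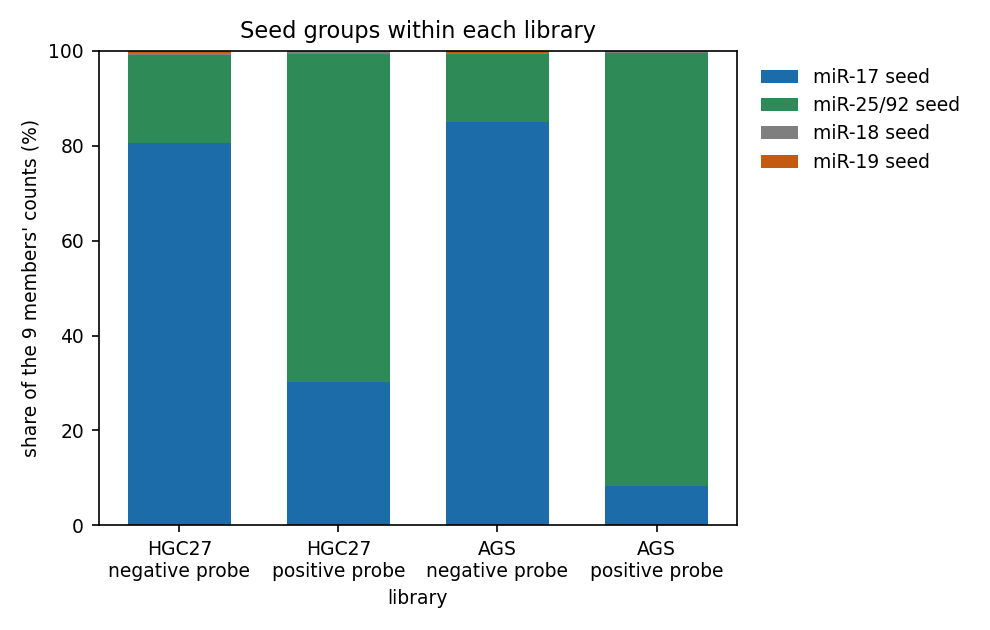
Share of the 9 members' counts held by each seed group in each library (stacked bars from 0 to 100%). The miR-17 seed holds 80.5% with the negative and 30.3% with the positive probe in HGC27, and 85.1% and 8.36% in AGS, and the miR-25/92 seed holds nearly all of the rest.

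The same split was found inside each cluster. In miR-17-92 of HGC27 there were 5.19 counts of miR-17-5p and miR-20a-5p for each count of miR-92a-3p with the negative and 0.653 with the positive probe, a 7.94-fold difference (exact 95% interval 7.59 to 8.31). In AGS the values were 6.52 and 0.0877, a 74.3-fold difference (63.5 to 87.3). In miR-106b-25 there were 2.00 counts of miR-106b-5p and miR-93-5p for each count of miR-25-3p with the negative and 0.203 with the positive probe in HGC27, a 9.87-fold difference (9.14 to 10.7), and 3.29 and 0.112 in AGS, a 29.4-fold difference (21.2 to 41.2). In both clusters the difference between the probes was larger in AGS and the intervals of the lines did not overlap. This contrast of the lines was not tested, since each line had 1 library per probe.

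Within miR-17-92, the ratio of the miR-19 seed to miR-92a-3p differed between the probes about as much as that of the miR-17 seed in HGC27, 8.95-fold (6.06 to 13.7), and 28.4-fold in AGS (9.08 to 143), from 3 counts with the positive probe. Set directly against each other, the counts of the miR-17 seed over those of the miR-19 seed differed 0.888-fold in HGC27 (0.580 to 1.31) and 2.61-fold in AGS (0.515 to 8.26), intervals that include 1. miR-18a-5p over miR-92a-3p differed 1.21-fold in HGC27 (0.944 to 1.55) and 2.83-fold in AGS (1.32 to 6.26). The miR-17 seed over miR-18a-5p differed 6.58-fold in HGC27 (5.13 to 8.41) and 26.2-fold in AGS (11.7 to 56.8), although the 2 seeds differ by 1 base.

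The miR-106b-25 share of the members' counts was 15.8% and 39.3% with the negative and positive probe in HGC27, and 10.9% and 17% in AGS. It was carried by different miRNAs. miR-93-5p led the cluster with the negative probe in both lines, with 5695 and 768 counts, and miR-25-3p with the positive probe, with 5839 and 464.

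Counts of all 4 libraries were also fitted together in edgeR (quasi-likelihood test, TMM scaling, cell line as covariate, Benjamini-Hochberg adjustment over 271 miRNAs). The 2 lines stand in for replicates here, with 1 residual degree of freedom. The fitted prior degrees of freedom were infinite, so the variance was pooled over the tested miRNAs rather than estimated for each. The standard error (SE) given with a fold change was derived from that fold change and the F statistic of its test. Of the 9 members 1 passed an adjusted p of 0.05, in the lower direction, where 2.95% of all tested miRNAs were called lower. It was miR-19a-3p, with a log2 fold change of -4.72 ± 1.30 (SE) and an adjusted p of 0.0206, a size that depends on how its blank is handled. Over 8 alternatives its adjusted p was between 0.0118 and 0.611.

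The miR-17 seed members did not pass this test. miR-17-5p had a log2 fold change of -4.02 ± 1.38 (edgeR adjusted p = 0.0522), miR-106b-5p -3.32 ± 1.17 (0.0523), miR-20a-5p -4.33 ± 1.55 (0.0550) and miR-93-5p -3.19 ± 1.28 (0.0913). miR-19b-3p had -2.77 ± 1.14 (edgeR adjusted p = 0.0998). All of them were lower with the positive probe in 2 of 2 lines. The number of members called ran from 0 in 5 alternatives, limma-voom among them, to 5 in the DESeq2 Wald test. It was 3 with DESeq2 size factors and 4 with known miRNAs only. Called lower among all tested miRNAs were 12 of 271 with DESeq2 size factors and 14 of 237 with known miRNAs only. In the Wald test they were 21 of 271. The calls of members thus rest on the choice of model.

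miR-18a-5p, miR-92a-3p and miR-25-3p did not pass, at -0.54 ± 1.06, 0.32 ± 1.22 and 0.88 ± 1.15, with edgeR adjusted p of 0.838, 0.898 and 0.709. Over all tested miRNAs the median log2 fold change for the probe was -0.16.

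Other miRNAs with the same seeds were looked up in the table. Of the X-linked relative of these clusters, miR-106a-363, 3 of 4 fixed members were listed. miR-106a-5p, which differs from miR-17-5p at C1A, had 26 counts with the HGC27 negative probe and was blank in the other 3 libraries. With the blank set to 3 counts it was 8.24-fold lower with the positive probe in HGC27, and its exact interval reached a ratio of 0.160. miR-20b-5p had 27 and 4 counts in HGC27 and none in AGS. Both carry the miR-17 seed, and both were lower with the positive probe in the line where they were seen.

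The other miR-25/92 seed miRNAs are shown with the seed in capitals, to set beside miR-92a-3p and miR-25-3p.
miR-92b-3p: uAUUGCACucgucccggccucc
miR-32-5p: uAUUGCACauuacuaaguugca
miR-363-3p: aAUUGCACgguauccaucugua
miR-92b-3p stood at 4708 and 3404 counts with the negative and positive probe in HGC27 and at 211 and 246 in AGS, ratios of 0.761 (0.728 to 0.795) and 1.97 (1.62 to 2.37). miR-32-5p was counted 111 and 184 times in HGC27 and 19 and 25 times in AGS, with ratios of 1.74 (1.37 to 2.23) and 1.75 (1.17 to 4.25). miR-363-3p, the miR-106a-363 member with this seed, had a ratio of 2.80 in HGC27 (2.12 to 4.03), from 55 and 152 counts, and was not listed in AGS. None of the 3 had a ratio of at most 0.5. Without miR-372-3p in the totals the AGS ratios of miR-92b-3p and miR-32-5p were 0.693 and 0.787, and edgeR called none of the 3 (adjusted p of 0.961, 0.809 and 0.501).

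miR-372-3p, a miRNA of stem cells and germ cell tumors, holds the miR-17 seed letters moved by 1 base, at bases 1 to 7. Its bases 2 to 8 are in capitals.
miR-372-3p: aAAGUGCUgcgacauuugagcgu
Its ratio was 1.58 in HGC27 (1.51 to 1.67) and 0.403 in AGS (0.402 to 0.404), from 2580 and 3885 counts in HGC27 and 2388335 and 572497 in AGS. Its neighbor miR-373-3p had 9 and 7 counts in HGC27 and 4181 and 1404 in AGS, an AGS ratio of 0.566 (0.531 to 0.60). miR-302b-3p, the most abundant of the 4 miR-302 miRNAs, was listed only in AGS, with 396 and 140 counts and a ratio of 0.607 (0.486 to 0.722). In AGS miR-372-3p, miR-373-3p and miR-302b-3p lay below the ratio of 1, and less far below it than the miR-17 seed members. The other miR-302 miRNAs were too scarce to place. miR-302a-3p had 18 and 5 counts in AGS, and miR-302c-3p 4 and a blank. miR-302d-3p had 14 and a blank, with an interval of 0 to 0.507 that spans the miR-17 seed ratios.

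A hairpin can give a second mature miRNA from the opposite arm, which carries another seed. Of 11 such minor arms 5 were listed, with at most 131 counts in a library. miR-106b-3p had 109 and 131 counts with the negative and positive probe in HGC27 and 9 and 50 in AGS, while miR-106b-5p of the same hairpin had 592 and 68, and 75 and 6. The 3p arm thus held 15.5% of the hairpin's counts with the negative probe in HGC27 (Wilson 95% interval 13.1 to 18.4) and 65.8% with the positive probe (59.0 to 72.1). In AGS it held 10.7% (5.74 to 19.1) and 89.3% (78.5 to 95). The ratio of the arms of this 1 hairpin therefore differed between the probes 10.5-fold in HGC27 (7.21 to 15.2) and 69.4-fold in AGS (21.1 to 244).

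miR-18a-3p had 3 counts with the negative and 32 with the positive probe in HGC27, 1.73% and 22.1% of the hairpin, and 2 counts or none in AGS. miR-93-3p held 0.0351% of its hairpin with the negative and 0.711% with the positive probe in HGC27, from 2 and 8 counts. The minor arms opposite a miR-25/92 seed held nearly the same share with each probe in HGC27, 0.359% and 0.400% for miR-92a-1-5p and 0.191% and 0.239% for miR-25-5p, with overlapping intervals. The share of miR-92a-1-5p was taken over all miR-92a-3p counts, which a hairpin on chromosome X also supplies, so it is not the share of 1 hairpin.

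**Figure D4:**
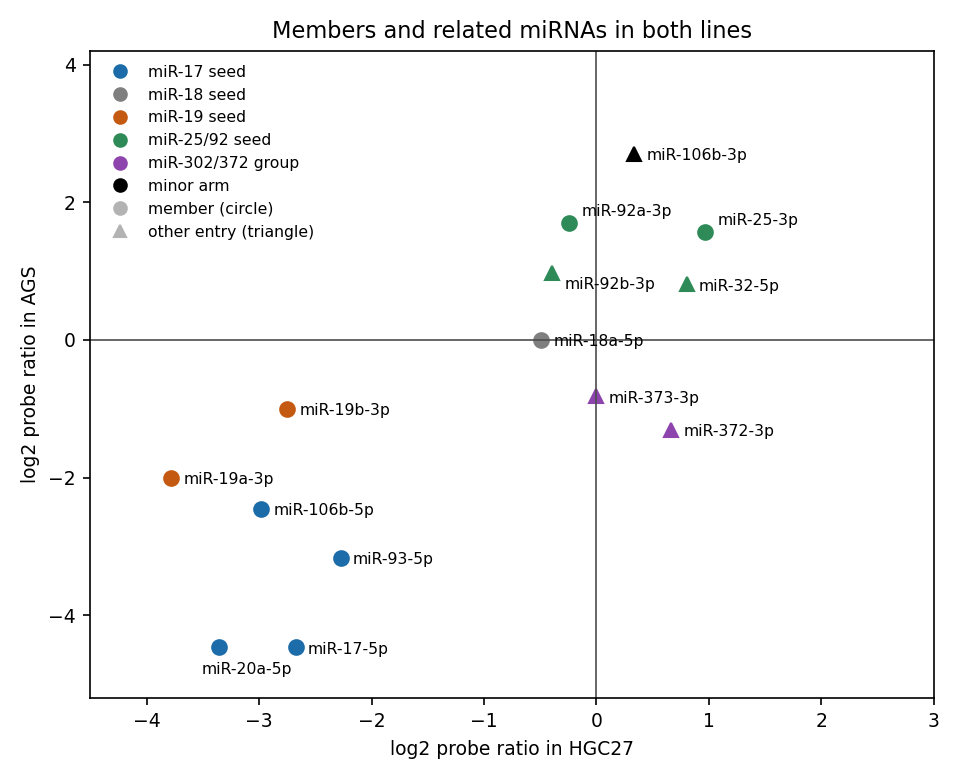
Log2 probe ratio in HGC27 (x axis) against AGS (y axis) for the 9 members (circles) and 5 related miRNAs (triangles) with counts in both lines, colored by seed. Of the minor arms only miR-106b-3p is drawn. miR-18a-3p and miR-92a-1-5p, which also had counts in both lines, are left out. The 4 miR-17 and 2 miR-19 seed members lie at the lower left, the miR-25/92 seed miRNAs around or above 0 in AGS, and miR-106b-3p at the top.

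The FN1 3′-UTR was searched for the letters that pair with each seed. In the annotated transcript that matches the reference named in the study's methods (GENCODE release 29), the 3′-UTR was 1101 bases long. The 7-letter complements of bases 2 to 8 were GCACTTT (miR-17), GCACCTT (miR-18), TTTGCAC (miR-19) and GTGCAAT (miR-25/92), and each had 0 matches. In the first 1101 bases of the 3′-UTR of 9619 genes they were found in 16.5%, 6.19%, 10.6% and 7.61% of genes. The antisense strand was searched by reading the seeds themselves on the sense strand. The letters of the miR-17 seed (AAAGTGC) had 0 matches, against 12.6% of genes, and those of the miR-18 seed (AAGGTGC) had 0, against 5.96%. The miR-19 letters (GTGCAAA) and the miR-25/92 letters (ATTGCAC) also had 0, against 6.67% and 6.56%. The shorter complement of bases 2 to 7 was found at 2 places for miR-17 (CACTTT, in 42.2% of genes) and 2 for miR-18 (CACCTT, in 28.8%), and at 0 for miR-19 (TTGCAC, in 23.9%) and miR-25/92 (TGCAAT, in 25.6%). TTGCAC is also part of the antisense motif ATTGCAC. These counts describe the letters in this window and say nothing of other pairing.

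Between the lines, all 9 members were higher in HGC27 than in AGS on the deposited scale. With the negative probe the log2 ratio of HGC27 over AGS ran from 3.64 for miR-17-5p to 4.87 for miR-25-3p, and 9 of 9 had a ratio of at least 2, as had 86.0% of the 615 miRNAs listed. With the positive probe it ran, over the 8 members with counts in both libraries, from 2.00 for miR-19b-3p (20 against 3 counts) to 5.43 for miR-17-5p. miR-19a-3p, with 8 counts against a blank, was 4.12-fold higher in HGC27 when the blank was set to 3 counts. Its exact interval began at 2.64-fold. Again 9 of 9 were at least 2, against 75.3% of the 684 listed. A share this close to that of all miRNAs is not a result about the members. Over the miRNAs with at least 10 counts the median log2 ratio was 2.81 with the negative and 2.58 with the positive probe.

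Set against these medians, the members spread little with the negative probe, from 0.83 to 2.06 above. With the positive probe miR-17-5p lay 2.85, miR-93-5p 2.49 and miR-20a-5p 2.27 above the median, while miR-92a-3p lay below it, at -0.47. miR-19b-3p was at -0.58, but its counting interval of 3.06-fold to 54.2-fold included the median ratio of 6, so its side of the median is open. The place of miR-19a-3p, known only by its bound, is not determined. Under TMM scaling miR-92a-3p with the positive probe was at -0.13 and so slightly higher in AGS. In the edgeR quasi-likelihood test of the lines (probe as covariate) 0 of 9 members were called, where 22.1% of tested miRNAs were called higher in HGC27. Log2 fold changes were between 0.21 for miR-92a-3p and 1.82 for miR-93-5p, with adjusted p of 0.891 and 0.299, and none had an unadjusted p under 0.05. DESeq2 and limma-voom also called 0 members. The fit to library totals alone called 9, where it called 154 of all 271 tested miRNAs higher in HGC27.

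The miRNAs whose levels over the 4 libraries were most like the members' median were named by the Euclidean distance between log2 levels centred on their own mean, among 181 other known miRNAs with at least 100 counts. They were miR-107 (distance 0.855), miR-455-5p (0.862), miR-152-3p (0.878), miR-26b-5p (1.11) and let-7d-3p (1.17). miR-107 had 562 and 90 counts with the negative and positive probe in HGC27 and 75 and 4 in AGS. The likeness is over 4 libraries and carries no test.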

How the data were processed

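Small RNA was sequenced after RNA pull-down from 4 libraries, 1 per group. The authors deposited raw counts of tags per mature miRNA. They also deposited a score that scales these to tags per 1000000, without decimals. The submitters' processing notes name cutadapt 1.9.3 and Novoalign 3.02.12. Rows that repeat a miRNA for several precursors were collapsed, 901 to 843 (570 known, 273 predicted), and a blank was taken as 0, since the lowest listed count was 2. Ratios used the deposited score + 1 (pseudocount 1). They had been planned for a continuous unit and were kept for the rounded score. Intervals used the divisors recovered from count and score, between 2763288 and 7179197 tags, above the table's totals. Why they exceed them is not given in the sources used here.

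Counts were fitted in edgeR 4.0.16 (R 4.3.3), after the script was tested on simulated data, with limma 3.58.1 and DESeq2 1.42.0 as alternatives. The common biological coefficient of variation was 0.612. Wilson and exact intervals came from SciPy 1.17.1 and cover counting error only, since tags carried no molecular identifiers. A blank was bounded at 3 counts.

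The members and lists were chosen with earlier results of these data known. Besides the members, the miRNAs named were their minor arms, the miR-106a-363 cluster, entries sharing a seed, the miR-302/372 group, predicted end variants (0 found, from a shared run of 18 bases) and the 5 nearest profiles. Sequences and hairpin positions came from RefSeq (GRCh38.p14), and host transcripts from GENCODE.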

Additional observations from a re-analysis of the deposited data

Results flagged for a closer look

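The miRNAs below had probe ratios on opposite sides of 1 in the 2 lines. The differences between the lines were not tested, as each line had 1 library per probe. The log2 probe ratio of miR-92a-3p was -0.24 in HGC27 against 1.70 in AGS (HGC27 minus AGS -1.95). miR-92b-3p, with the same seed, had -0.39 against 0.98 (-1.37). miR-372-3p had 0.66 against -1.31 (1.98). Once the totals excluded miR-372-3p, the AGS log2 values of miR-92a-3p and miR-92b-3p were 0.20 and -0.53, so for miR-92b-3p both lines were then below 0.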

How the results depend on the processing

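No paired analysis was possible because the labels number no replicates and each group had 1 library, so the cell line was the only block. The median log2 probe ratio of the members was between -2.75 and -2.25 in HGC27 under 7 alternatives. In AGS, where it is -2 and rests on the blank of miR-19a-3p, it was -3.44 on raw counts, -3.42 under TMM and -3.09 with DESeq2 size factors. It was -2.42 with table totals and -4.19 without miR-372-3p, where 7 members and 208 of 459 listed miRNAs were at most 0.5. At a pseudocount of 0.1 it was -3.20. At a pseudocount of 10 it was -0.38, with 3 members and 36 of 459 listed miRNAs at most 0.5. Members with a ratio of at least 2 numbered 1 in HGC27 under TMM, DESeq2 size factors and table totals, miR-372-3p included or not, and 0 in AGS under raw counts, TMM and totals without miR-372-3p. Of all miRNAs listed, 230 to 292 of 755 in HGC27 and 163 to 184 of 459 in AGS were at least 2 under these settings. The median line ratio with the negative probe was 2.89 on raw counts, 1.16 under TMM, 1.53 without miR-372-3p and 3.58 at a pseudocount of 10. With DESeq2 size factors this median was 1.09, where 5 members and 240 of 615 listed miRNAs were at least 2. With the positive probe it was 1.91 under TMM, 1.72 with DESeq2 size factors, 2.88 without miR-372-3p and 2.10 at a pseudocount of 10, and miR-92a-3p reversed to -0.13 under TMM and -0.44 with DESeq2 size factors. The edgeR probe test called 19 miRNAs, 0 with library totals only, without the covariate, without a filter or where every library had to reach 10 counts, 0 in limma-voom (52, 17, 66, 16 and 72 at an unadjusted p under 0.05), 32 with DESeq2 size factors and 49 in DESeq2. The line test called 81, 169 with library totals only, 0 without a filter (95 unadjusted) and 15 where every library had to reach 10 counts. Without miR-19b-3p and miR-92a-3p, which chromosome X also makes, the miR-17 seed held 93.3%, 47.6%, 96.6% and 34.8% and miR-106b-25 18.3%, 61.8%, 12.4% and 70.6% of the rest (HGC27 negative, HGC27 positive, AGS negative, AGS positive). Adding the X-linked near-identical miRNAs left these shares within their intervals, and adding end variants gave no value because none was listed. The cause of these differences was not tested. With 1 library per group, depth limits the AGS values of the miR-19 seed, miR-18a-5p and miR-106b-5p, at 13 or fewer counts in the lower library.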

Other observations

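The miR-17 and miR-19 seed members hold more adenine than the miR-25/92 seed members, with A making up 21.7% to 39.1% of their bases against 9.09% and 13.6%. Across the 190 known miRNAs with at least 100 counts, the A content went with a lower probe ratio, with Spearman's rho of -0.485 in HGC27 and -0.450 in AGS (Pearson's r of -0.451 and -0.433). Without the 9 members, over 181 miRNAs, rho was -0.461 and -0.423. This relation is across miRNAs that share the same 4 libraries and their depth, was looked at after the values were seen, and carries no test.

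In the 59 of these miRNAs with the most A (28.6% to 50.0% of bases) the median log2 probe ratio was -1.17 in HGC27 and -1.70 in AGS. In the 69 with the least (up to 18.2%) it was 0.54 and 0.98. The U content went the other way, with rho of 0.280 and 0.285, and C content had rho of 0.0201 and -0.0245. miR-18a-5p, with 30.4% A, the same as miR-17-5p and miR-20a-5p, had log2 ratios of -0.49 in HGC27 and 0.00 in AGS on the deposited scale. The AGS value was -0.49 under TMM and -1.24 without miR-372-3p in the totals. The part of base composition in the difference between the seed groups was not tested.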
